A study of Mus musculus with 18 samples.

Results

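The genes described here are the matrix proteases of 2 mouse families and their tissue inhibitors: every gene symbol that reads Mmp, Adamts or Timp followed only by a number (with an a or b for the duplicated collagenase). The rule used symbols and no measured value. It found 46 of the 23337 genes in the count table, 23 matrix metalloproteinases (MMPs), 19 ADAMTS proteases and the 4 tissue inhibitors of metalloproteinases (TIMPs). They were followed through a time course in which mouse embryonic stem cells were differentiated toward heart muscle. All 18 libraries were polyA RNA from untreated cultures of 1 line, TBX5-FTA, with the strain given as A2Lox.cre. Harvests were made on days 5, 6, 7, 8, 10 and 15 (written D5 to D15). The first 3 are labelled cardiac progenitor cells and the later 3 immature cardiomyocytes. Each day had 3 libraries. The labels do not say whether these came from separate cultures, so every p-value here reflects only how libraries vary, and that variation could be technical. The series belongs to a study of Hedgehog signalling and differentiation timing, and no Hedgehog perturbation enters here.

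MMPs are zinc-dependent enzymes that are made as inactive proenzymes and cut collagens, laminins, fibronectin and other matrix proteins. Some are secreted and others are anchored in the cell membrane. ADAMTS proteases are secreted and carry thrombospondin repeats, and their best known substrates are versican, aggrecan, the propeptides of collagens and fibrillin-rich microfibrils. TIMPs block the active site of MMPs, and TIMP3 inhibits ADAMTS enzymes as well. TIMP2 also has a second role, since it links the proenzyme of MMP2 to MMP14 at the cell surface, where MMP2 is activated. In the developing heart, cleavage of the versican-rich cardiac jelly by ADAMTS proteases accompanies the growth of trabeculae and the thinning of the valves.

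Library totals ran from 5257601 to 7122093 reads in genes, and levels are given as CPM, the reads of a gene scaled to the library total with TMM factors. Libraries of a day did not agree in any pair within sampling noise, with a chi-square over degrees of freedom from 2.21 to 9.23. Within a day, libraries are written in the order of their columns, which carry no replicate number. On all 6 days the summed CPM of 8 cardiomyocyte markers (such as Myh6 and Tnnt2) fell from the first column to the third, for example 3494, 2490.2 and 1367 on D10. The summed CPM of 8 fibroblast markers (such as Col1a1 and Pdgfra) was highest in the third column on all 6 days. The labelled cell type had its markers: the cardiomyocyte sum went from between 215.2 and 266 on D5 to between 3966 and 6661 on D15, and 7 of the 8 rose. The fibroblast sum went from between 426 and 462 to between 38201 and 47262, with 8 of 8 risen, and the epicardial sum from between 211 and 229.7 to between 2397 and 2595, with 6 of 6. The endothelial sum went from between 124 and 147 to between 317 and 485, with 6 of 7 risen, while 3 of 4 smooth muscle markers fell, their sum going from between 2526 and 2917 to between 961 and 1218. These marker counts compare D15 with D5 at an edgeR adjusted p under 0.05, where 40.3% of all tested genes rose and 37.7% fell. The 5 pluripotency markers summed to at most 6.28 CPM in any library. In such bulk samples, fewer cells of a type and less RNA per cell cannot be told apart, and the part of cell makeup in the results was not tested.

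Of the 46 members, 28 passed the filter on low counts and were tested: 8 MMPs, 17 ADAMTS proteases and 3 TIMPs. Another 13 had some reads but stayed under the filter, and 5 had none. Most of the MMPs not measured lay together. A group of 10 MMP genes forms a cluster of 427.1 kb on chromosome 9 (7272514 to 7699585, GENCODE M21 on mm10), which holds the collagenases Mmp1a, Mmp1b, Mmp8 and Mmp13, the stromelysins Mmp3 and Mmp10, matrilysin Mmp7, macrophage elastase Mmp12, the enamel protease Mmp20, and Mmp27. In all 18 libraries the 10 genes summed to 46 reads, against 35241 for Mmp14 alone, and none passed the filter. Mmp1a, Mmp7, Mmp12 and Mmp20 had no read, which allows up to 3 in the sum of all libraries. Of the 46 reads, 5 came from libraries before D15. Mmp27 had 7, 7 and 9 reads on D15, 0, 3 and 0 on D10 and none on the earlier days, which makes D15 at least 9.33-fold higher than D5 when D5 is set to 3 reads over its 3 libraries. Mmp3 had 2, 6 and 1 reads on D15, Mmp8 had 0, 2 and 4, Mmp10 0, 2 and 0, and Mmp1b 1, 0 and 0, all with none before. Mmp13, an enzyme of bone and cartilage, had 1, 0 and 1 reads on D5 and none later. Of the 13 MMP genes elsewhere in the genome, 8 were tested and 1, Mmp21, a gene of left-right patterning, had no read.

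**Figure D1:**
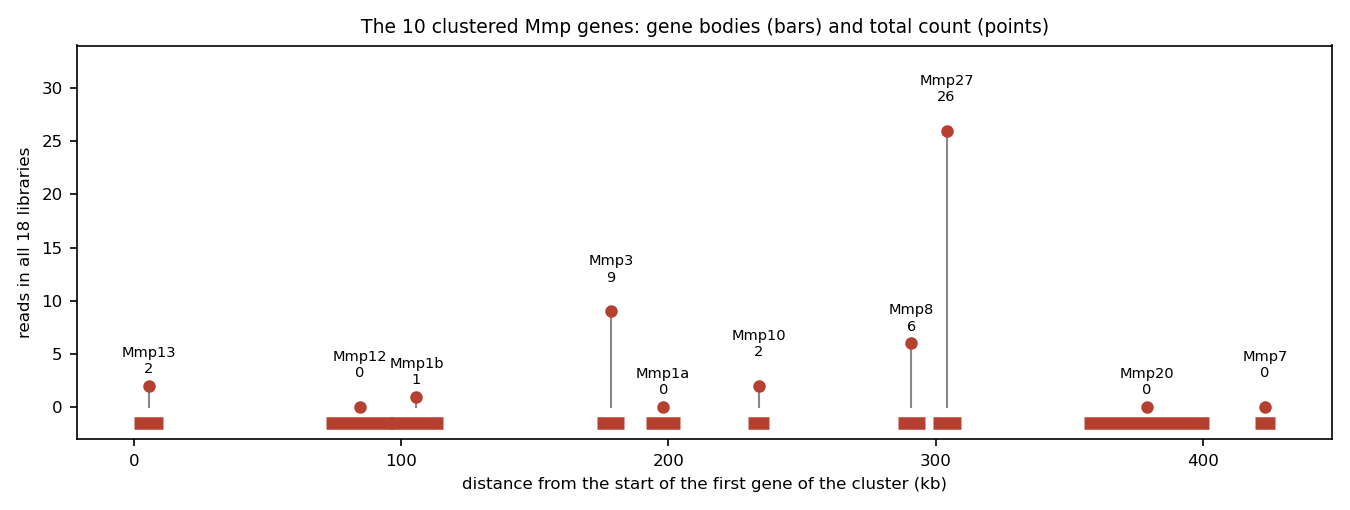
Total reads in all 18 libraries for the 10 clustered Mmp genes (vertical axis, reads) against the distance from the start of the first gene (horizontal axis, kb), with gene bodies as bars. The highest point is Mmp27 with 26 reads, and 4 genes sit at 0.

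The start regions of 8 of the 10 clustered genes are shown because they share a short sequence. RefSeq promoter entries (GRCm38.p6) were matched by symbol for 32 of the 46 members, and Mmp2 had none. In the 250 bases before the start, the AP-1 letters TGANTCA, read on both strands, occurred in 8 members, and all 8 are genes of the chromosome 9 cluster. The other 2 clustered genes, Mmp8 and Mmp27, have an entry without these letters. They occurred in 0 of the 15 tested members with an entry, which is near the background of 6.75% of all 32851 promoters. Each line gives 51 bases with the AP-1 letters in capitals, written 5′ to 3′ on the gene's own strand.
Mmp13 (chr9:7272457-7272507, + strand): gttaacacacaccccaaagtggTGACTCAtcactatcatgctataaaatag
Mmp12 (chr9:7347308-7347358, + strand): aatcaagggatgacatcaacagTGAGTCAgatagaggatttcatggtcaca
Mmp1b (chr9:7388091-7388141, - strand): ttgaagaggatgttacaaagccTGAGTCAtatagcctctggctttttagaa
Mmp3 (chr9:7445754-7445804, + strand): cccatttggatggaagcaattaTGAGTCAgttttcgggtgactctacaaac
Mmp1a (chr9:7464046-7464096, + strand): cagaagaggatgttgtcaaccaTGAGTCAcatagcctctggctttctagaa
Mmp10 (chr9:7502257-7502307, + strand): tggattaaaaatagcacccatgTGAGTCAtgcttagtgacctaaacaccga
Mmp20 (chr9:7628114-7628164, + strand): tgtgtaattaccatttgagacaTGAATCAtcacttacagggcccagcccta
Mmp7 (chr9:7692005-7692055, + strand): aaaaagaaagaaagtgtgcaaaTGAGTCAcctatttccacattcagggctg
The match began 35 bases before the start in Mmp13, 44 in Mmp12 (at the later of its RefSeq starts), 46 in Mmp3, 63 in Mmp10 and Mmp7, 73 in Mmp1a, 93 in Mmp1b and 95 in Mmp20. The GC box letters GGGCGG (both strands) went the other way, in 12 of the 15 tested members with an entry, in 4 of the 17 others, and in 32.7% of all promoters. Among the 12 were Mmp14, Timp1, Timp2 and Timp3. Stretches of 50 bases around the GC box of 3 tested members that lie clear of annotated exons are shown for contrast, again with the match in capitals.
Adamts1 (chr16:85803162-85803211, - strand): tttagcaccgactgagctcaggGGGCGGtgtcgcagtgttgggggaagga
Mmp11 (chr10:75932527-75932576, - strand): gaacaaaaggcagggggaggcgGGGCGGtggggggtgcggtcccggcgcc
Mmp15 (chr8:95352168-95352217, + strand): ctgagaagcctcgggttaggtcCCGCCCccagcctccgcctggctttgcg
TATAAA occurred in 1 of the 15 tested members with an entry, Adamts1, and in 8 of the 17 others, against 12.4% of all promoters. These matches describe letters only. The shares of all promoters include genes that were not tested here, and shares over the promoters of tested genes alone were not computed.

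Under the filter but outside the cluster were 7 more members. Mmp9, the gelatinase of leukocytes and invading cells, had 49 reads in all, with 10, 3 and 3 on D5 and 1, 2 and 1 on D15. Mmp25, a membrane-anchored leukocyte enzyme, had 25, and Mmp24, a membrane-type enzyme of the nervous system, had 16. Macrophage and neutrophil markers were also scarce: Ptprc and Emr1 had no read in any library, the 5 neutrophil markers in the table summed to at most 0.799 CPM, and the macrophage list reached 21.7 CPM on D15, most of it Csf1r. Mmp28, known as epilysin, had 85 reads, of which 29, 5 and 16 were on D8. Adamts18 had 5, 2 and 4 reads on D5, 1, 1 and 0 on D10 and none on D15, so D5 was at least 3.01-fold higher than D15 set to 3 reads. Adamts13, which cleaves von Willebrand factor, had 9 reads. Timp4, an inhibitor of adult heart, had 1 read in each of 2 of the D15 libraries and none elsewhere.

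Most of the measured members went up together. On D15, 26 of the 28 tested members were higher than on D5 and 0 were lower at an edgeR adjusted p under 0.05, while of all 13116 tested genes 40.3% had risen and 37.7% had fallen. At an unadjusted p under 0.05 the counts were also 26 and 0. The median log2 fold change of the 28 was 2.82 (quartiles 1.40 and 4.21), against 0.03 over all genes tested (quartiles -0.66 and 1.00). The members' median stayed at 2.82 with Adamts16, which had no read on D5, set to its lower bound. All later changes are log2 fold changes of this fit with their SE. All 26 also had their 3 D15 libraries above their 3 D5 libraries, as did 41.2% of all genes tested, while no member and 38.9% of all genes had them below. The 2 exceptions were Adamts17, at 0.19 ± 0.15 (SE, edgeR adjusted p = 0.232), and Mmp15, at -0.32 ± 0.25 (SE, edgeR adjusted p = 0.251). A gene can pass the filter through its high days alone, so the count was repeated on the 22 tested members that reached 1.57 CPM before TMM scaling, the filter's level, in every library of both D5 and D15, and 20 rose. The share of all tested genes that rose under the same restriction was not computed. By family, 7 of 8 MMPs, 16 of 17 ADAMTS proteases and 3 of 3 TIMPs rose. Across all 6 days 27 of 28 changed, beside 88.9% of all tested genes, so that count alone sets nothing apart.

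**Figure D2:**
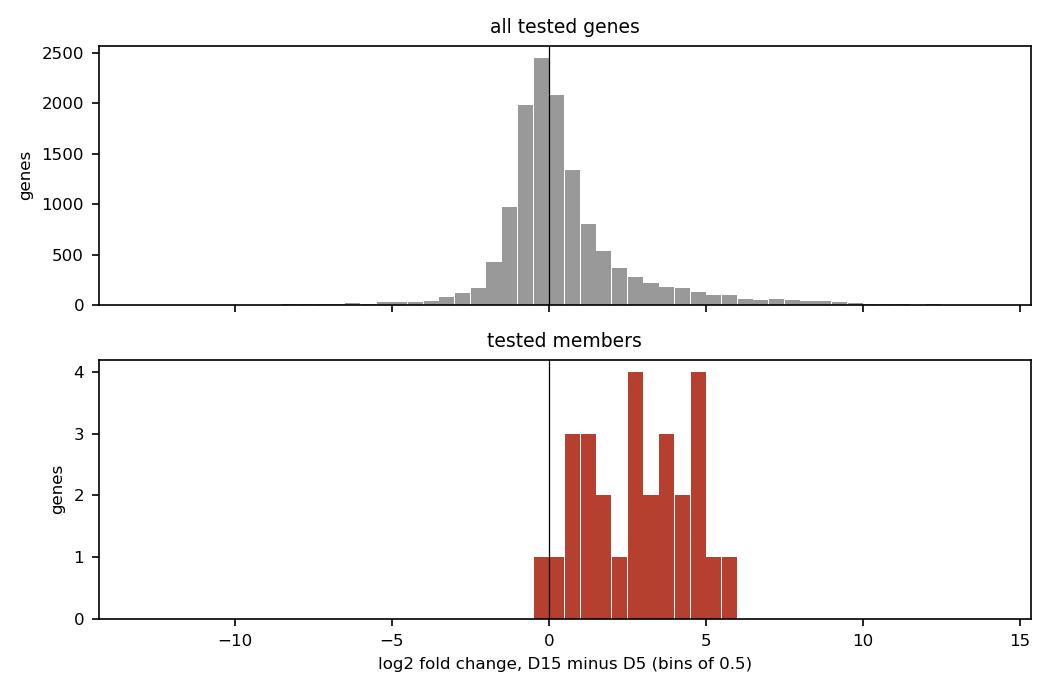
Log2 fold change from D5 to D15 (horizontal axis, bins of 0.5) for all 13116 tested genes (top) and the 28 tested members (bottom), as numbers of genes (vertical axes). The members centre on a median of 2.82 and the whole table on 0.03.

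The day of the highest level differed among members. Of the 27 called across days, 20 peaked on D15, 5 on D10 (Mmp11, Mmp16, Adamts6, Adamts15 and Adamts16), 1 on D8 (Adamts17) and 1 on D6 (Adamts2). None peaked on D5 or D7. Over all genes called across days, 35.5% peaked on D15, 10.4% on D10 and 26.6% on D5.

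**Figure D3:**
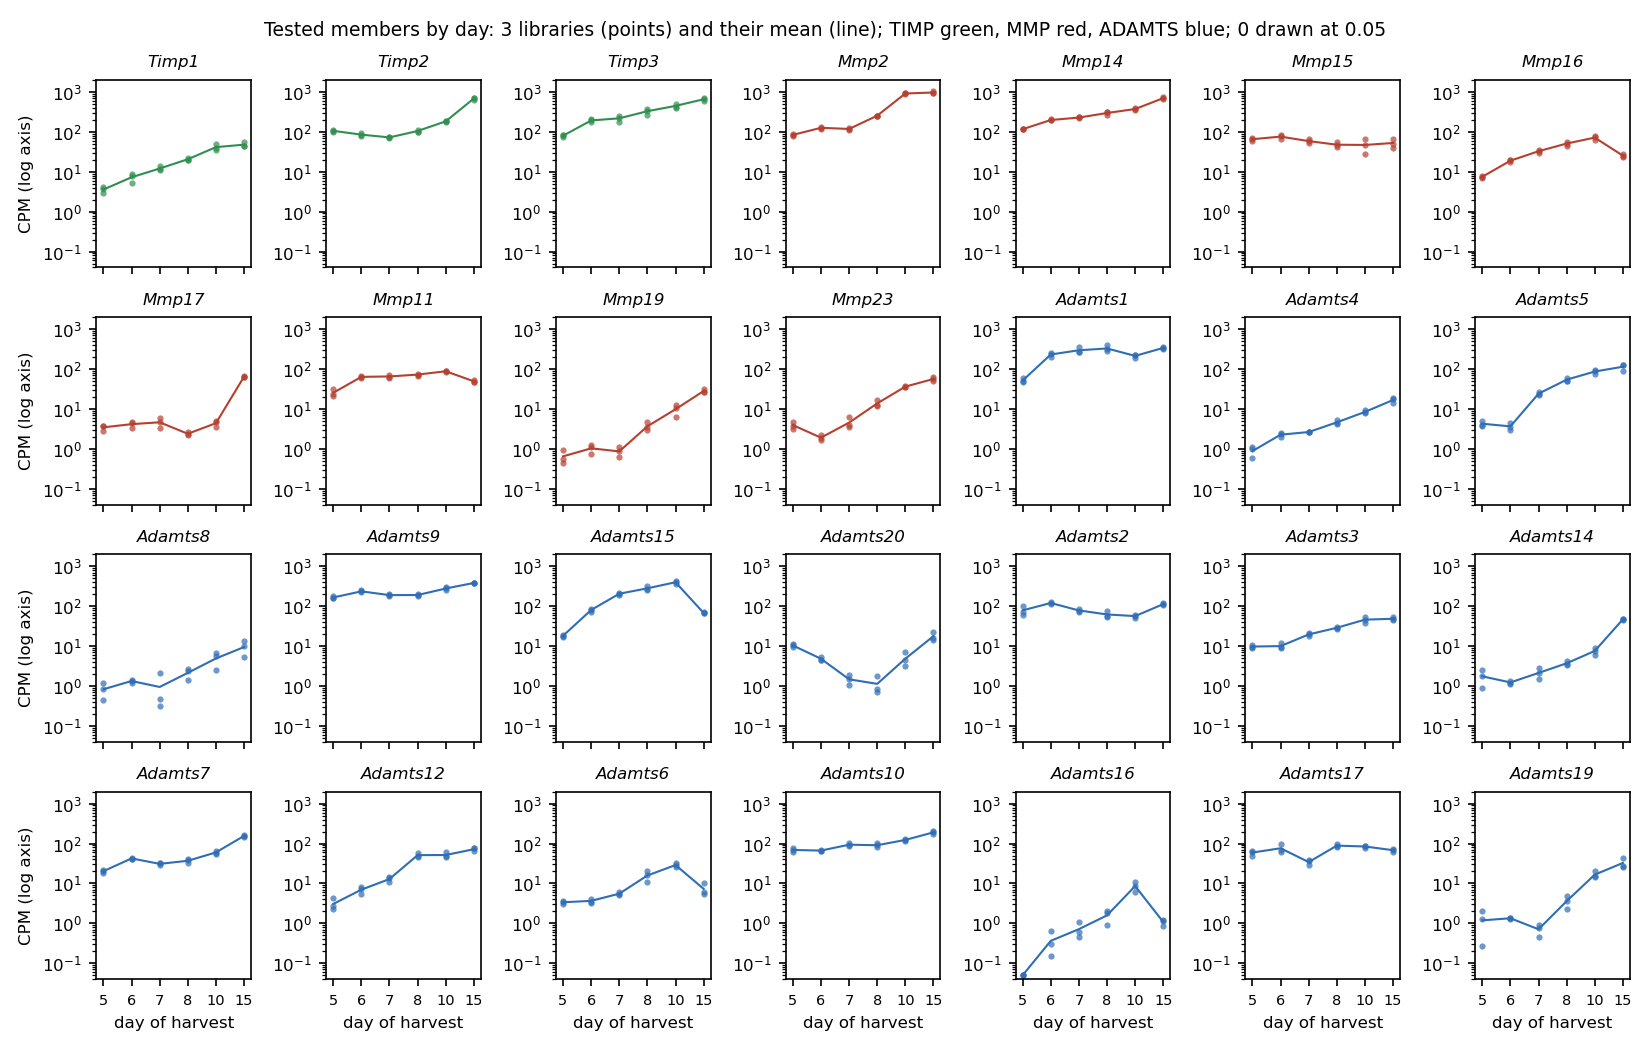
CPM on a log axis (vertical) by day of harvest (horizontal) for the 28 tested members, with each of the 3 libraries of a day as a point and the day means as a line (TIMPs green, MMPs red, ADAMTS proteases blue). Most lines climb to D15, while Adamts15, Adamts16, Adamts6 and Mmp16 drop after D10, and the 3 D5 points of Adamts16 are 0, drawn at 0.05.

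The inhibitors rose on different schedules. Timp2 (chromosome 11, 118301069 to 118355740), the partner of MMP14, stood at 114, 107 and 98.9 CPM on D5, 77.5, 82.9 and 95.5 on D6, 72.6, 73.7 and 72.0 on D7, 99.5, 102 and 115 on D8, 184, 187 and 179.9 on D10, and 647, 708 and 707 on D15. It first declined, with D7 libraries all below D5 libraries, and then rose steeply after D10. The change from D5 to D15 was 2.69 ± 0.07 (SE, edgeR adjusted p = 2.2e-23) on the log2 scale, and the last step alone was 1.90 ± 0.07 (SE, edgeR adjusted p = 3.78e-19). Its earlier falls of -0.32 (D5 to D6) and -0.23 (D6 to D7) passed the test at edgeR adjusted p = 0.00138 and 0.0254, and the second was lost when any D7 library or the third D6 library was left out, or when those 2 days were fitted alone.

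Timp3, which binds to the matrix and inhibits ADAMTS enzymes as well as MMPs, was at 81.7, 83.4 and 75.3 CPM on D5, 178, 209 and 194 on D6, 182, 220.0 and 255 on D7, 268, 344 and 379 on D8, 407, 427 and 512 on D10, and 719, 599 and 657 on D15. Its largest step was the first, 1.27 ± 0.15 (SE, edgeR adjusted p = 8.79e-06), and the whole rise was 3.04 ± 0.15 (SE, edgeR adjusted p = 4.51e-11). The count of Timp3 is uncertain, because only 78.6% of its 50-base stretches are unique among annotated transcripts and 21.3% of its exon bases overlap exons of Syn3 on the other strand. Syn3 had 268 reads in all, against 35145 for Timp3. Timp1, the inhibitor best known from inflamed and remodelling tissue, stood at 2.91, 3.63 and 4.22 CPM on D5, 7.95, 5.36 and 8.55 on D6, 13.7, 10.8 and 11.8 on D7, 19.6, 19.6 and 22.6 on D8, 34.2, 40.2 and 50.0 on D10, and 44.6, 43.7 and 55.1 on D15. It was low at the start and gained 3.73 ± 0.19 (SE, edgeR adjusted p = 6.88e-17), rising in each of the first 4 steps and changing by 0.21 in the last, which did not pass. The TIMP genes lie within synapsin genes on the opposite strand (Timp1 in Syn1, Timp3 in Syn3, Timp4 in Syn2), except Timp2.

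Mmp2, gelatinase A, which degrades basement membrane collagen (chromosome 8, 92827291 to 92853420), had the largest F of the members (F = 1172, edgeR adjusted p = 6.12e-29). It stood at 79.7, 87.7 and 85.0 CPM on D5, 120.3, 124 and 135 on D6, 124, 111 and 121 on D7, 257, 252 and 256 on D8, 920.1, 897 and 937 on D10, and 930.1, 925 and 1060.0 on D15. All D10 libraries exceeded all D8 libraries, and the D10 and D15 libraries overlapped. From D5 to D15 it gained 3.53 ± 0.07 (SE, edgeR adjusted p = 2.38e-26), of which 1.85 ± 0.06 (SE, edgeR adjusted p = 6.87e-19) came between D8 and D10, while the last step was 0.08 ± 0.06 (SE, edgeR adjusted p = 0.275). Mmp2 made up 27.2% of the summed CPM of all MMPs on D5 and 59.1% on D10.

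Of the 4 tested membrane-type MMPs, Mmp14 (MT1-MMP, chromosome 14, 54431612 to 54445364), the activator of MMP2, was the most abundant. Its levels were 116, 119 and 116 CPM on D5, 193, 198 and 205 on D6, 236, 219 and 229.9 on D7, 311, 271 and 311 on D8, 359, 367 and 397 on D10, and 659, 715 and 733 on D15. No earlier day reached the D15 libraries. It was the only member called as risen in all 5 steps, with 2.59 ± 0.07 (SE, edgeR adjusted p = 8.15e-24) from D5 to D15, though its smallest step, 0.20 from D6 to D7, lost the call without the first or second D6 library or the first D7 library.

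Mmp16 (MT3-MMP) followed an arch, with 8.0, 7.40 and 7.08 CPM on D5, 19.7, 19.3 and 17.9 on D6, 33.2, 34.8 and 30.2 on D7, 57.0, 50.9 and 45.2 on D8, 62.0, 75.4 and 78.4 on D10, and 23.3, 25.5 and 27.3 on D15. The 3 D15 libraries were all below the 3 D7 libraries. It rose in each of the first 4 steps and then changed by -1.5 ± 0.11 (SE, edgeR adjusted p = 4.63e-12). Mmp17 (MT4-MMP, attached by a lipid anchor, chromosome 5, 129584169 to 129611099) was low until D10 and high on D15, at 3.78, 3.77 and 2.86 CPM on D5, 4.43, 4.74 and 3.33 on D6, 3.27, 6.01 and 4.65 on D7, 2.18, 2.32 and 2.69 on D8, 4.91, 4.83 and 3.48 on D10, and 64.2, 66.7 and 62.3 on D15. From D5 to D10 its level stayed between 2.18 and 6.01 CPM, and the lowest D15 library was at 62.3. The last step, 3.85 ± 0.18 (SE, edgeR adjusted p = 9.56e-17), was the largest rise of any member in that step, and its fall of -0.95 from D7 to D8 was the only one in that step and was lost without the second D7 library.

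Mmp15 (MT2-MMP) was the single tested member not called across days (F = 2.41, edgeR adjusted p = 0.103). Its levels were 59.8, 65.9 and 71.4 CPM on D5, 81.3, 79.0 and 67.9 on D6, 66.5, 58.3 and 51.6 on D7, 55.4, 46.3 and 41.5 on D8, 66.4, 47.1 and 27.6 on D10, and 66.8, 51.2 and 40.3 on D15. On D6, D7, D8, D10 and D15 they fell from the first column to the third, in the same order as the cardiomyocyte marker sums, while on D5 they rose. A fall in column order on at least 5 of the 6 days occurred in 1.05% of all tested genes, and Mmp15 was picked out after its values were seen. The lowest and highest D10 libraries spanned a range that holds the means of D5, D7, D8 and D15. Without the first or the third D10 library, Mmp15 was called across days. Adamts17 and Adamts19 were highest in the first column on 4 days and Adamts6 on 5. Mmp19, Adamts2 and Timp1 were highest in the third on 5 days, and Adamts3, Adamts5, Adamts12, Adamts14 and Adamts15 on 4. The share of all genes with such an order was not computed for these, and the part of cell makeup was not tested.

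The other secreted or atypical MMPs measured were Mmp11, Mmp19 and Mmp23. Mmp23, an atypical enzyme that lacks the usual haemopexin domain, stood at 4.80, 3.21 and 3.81 CPM on D5, 1.83, 1.68 and 2.22 on D6, 6.25, 3.55 and 3.87 on D7, 12.5, 11.9 and 17.0 on D8, 34.8, 35.7 and 38.6 on D10, and 51.1, 63.7 and 55.0 on D15. It fell by 1.04 on the log2 scale from D5 to D6 and rose in every later step, for 3.84 ± 0.18 (SE, edgeR adjusted p = 1.25e-17) from D5 to D15. Mmp19 went from a mean of 0.649 ± 0.270 CPM (SD, n = 3) on D5 to 28.2 ± 2.77 on D15, a log2 fold change of 5.39. Its count is uncertain, since 75.3% of its 50-base stretches are unique and 22.3% of its exon bases overlap Tmem198b on the other strand. Tmem198b had 2947 reads in all, against 784 for Mmp19. Mmp11, stromelysin-3, went from 25.5 ± 5.28 on D5 to 88.3 ± 3.35 on D10 and 49.5 ± 2.47 on D15 (SD, n = 3), and its final fall of -0.83 passed the test (edgeR adjusted p = 6.13e-08).

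To set inhibitors against enzymes, levels were divided by the length of each gene's exons (CPM per kb). That length merges the exons of all annotated transcripts of a gene and can exceed that of the transcripts expressed. Ratios and ranks between genes depend on it. These are transcript ratios and say nothing of protein or activity. Summed over the family, TIMP transcripts were 0.594 ± 0.0509 of MMP transcripts on D5 (SD, n = 3), 0.369 ± 0.0322 on D10 and 0.649 ± 0.0134 on D15. The 3 D10 libraries were below those of every other day. That order depends on the denominator: over MMP and ADAMTS transcripts together the TIMP ratio was 0.331 on D5, 0.242 on D6, 0.245 on D7, 0.259 on D10 and 0.450 on D15, and the D6, D7 and D10 libraries overlapped. All TIMPs enter that ratio, not only Timp3, so it does not set inhibitors against their own targets. For the pair Timp2 and Mmp2 the ratio was 1.10 ± 0.119 on D5, 0.357 ± 0.0269 on D8, 0.173 ± 0.00736 on D10 and 0.614 ± 0.0439 on D15. The D5 libraries were all above 1 and the D10 libraries at most 0.181. Against Mmp14, the Timp2 ratio went from 1.39 ± 0.0983 on D5 to 0.488 ± 0.0236 on D7 and back to 1.5 ± 0.0197 on D15. The Mmp2 to Mmp14 ratio was 1.27 ± 0.0504 on D5, 0.918 ± 0.0171 on D7, 4.34 ± 0.181 on D10 and 2.45 ± 0.141 on D15. These ratios are descriptions and were not tested.

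**Figure D4:**
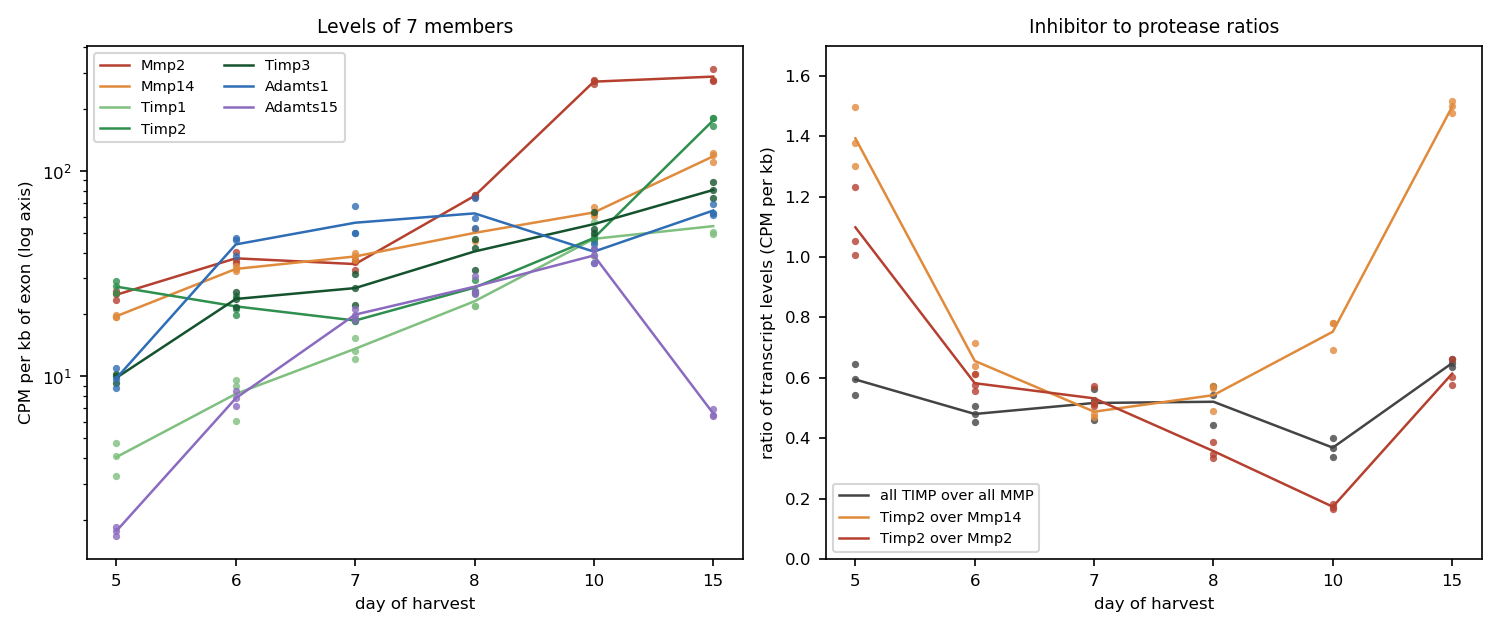
Left, CPM per kb of exon on a log axis (vertical) by day of harvest (horizontal) for 7 members. Right, ratios of transcript levels per kb (vertical) by day, with points for libraries and lines through day means, where Timp2 over Mmp2 is lowest on D10 at 0.173 and Timp2 over Mmp14 is lowest on D7 at 0.488.

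By CPM per kb the leading member changed with time. Timp2 led on D5 at 27.3, followed by Mmp2 at 25 and Mmp14 at 19.6. By CPM without the length, Adamts9 at 167 and Mmp14 at 117 were above Timp2 at 106 on D5. Adamts1 led on D6 at 43.9 and on D7 at 56.0. Mmp2 led from D8 on, at 75.6 on D8, 272 on D10 and 288 on D15, when Timp2 was next at 176 followed by Mmp14 at 118. On D10 and D15 the 3 libraries of Mmp2 lay above all those of the next member. On D5 the libraries of Timp2 and Mmp2 overlapped, and on D6 those of Adamts1 and Mmp2 did.

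All 7 ADAMTS proteoglycanases, which cut versican and aggrecan, were higher on D15 than on D5, beside 40.3% of all tested genes. Adamts4 and Adamts8 did not reach the filter's level in every D5 library and were tested through later days, so the filter favoured a rise for them. Adamts1 (chromosome 16, 85793827 to 85803113), a versicanase of the developing heart, stood at 58.3, 46.2 and 51.2 CPM on D5, 251, 204 and 243 on D6, 265, 265 and 359.7 on D7, 315, 281 and 393 on D8, 189.7, 221 and 232 on D10, and 367, 323 and 331 on D15. The D5 libraries lay below those of every other day. Its rise of 2.16 ± 0.16 (SE, edgeR adjusted p = 1.05e-07) came in the first step, and from D8 to D10 it fell by 0.62, the only fall in that step. Adamts5, its neighbour 53.1 kb away (chromosome 16, 85856173 to 85901828) and the main aggrecanase of cartilage, moved a day later, at 5.09, 3.91 and 3.81 CPM on D5, 3.51, 3.06 and 4.43 on D6, 22.3, 24.1 and 26.2 on D7, 61.4, 50.2 and 51.5 on D8, 76.7, 90.2 and 93.7 on D10, and 91.3, 126 and 127 on D15. It changed by -0.22 from D5 to D6, which did not pass, and then by 2.72 ± 0.19 (SE, edgeR adjusted p = 2.46e-11), the largest rise of the members in that step. From D5 to D15 Adamts5 gained 4.75 and Adamts1 2.71.

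Adamts15, a proteoglycanase of the same group (chromosome 9, 30899155 to 30922452), had 18.3, 17.3 and 19.2 CPM on D5, 87.9, 73.9 and 81.3 on D6, 196, 206 and 219.8 on D7, 269, 261 and 319.8 on D8, 370.0, 404 and 430.5 on D10, and 66.3, 71.5 and 67.0 on D15. It climbed for 4 steps, and its D15 libraries were back below those of D6. The first step was 2.15 ± 0.10 (SE, edgeR adjusted p = 6.52e-16) and the last -2.56 ± 0.08 (SE, edgeR adjusted p = 2.08e-20). Its neighbour Adamts8, 20.1 kb away, did not share that fall: it had 4.93 ± 2.14 CPM on D10 and 9.52 ± 3.91 on D15 (SD, n = 3). The D10 to D15 rise of Adamts8 was 0.92 ± 0.38 (SE, edgeR adjusted p = 0.0429), and DESeq2, upper quartile scaling, a fit of the 2 days alone or leaving out single libraries ended it. Between D10 and D15 the summed level of 6 cartilage markers also dropped, from between 424 and 465 CPM to between 174 and 209, and its part in the course of Adamts15 was not tested. Acan and Matn1 of that list were near 0, and Col11a1 made up most of the sum. On D10 Col11a1 stood at 31.1 CPM per kb, against 6.36 for Sox9, 2.37 for Col9a1 and 1.03 for Col2a1. Sox9 was higher on D8, at 6.83, and Col2a1 was highest on D5, at 3.58, and lower on each later day. The list as a whole thus did not follow the course of Adamts15.

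Adamts20, which cuts versican in skin, ran in a valley, at 11.5, 10.5 and 9.40 CPM on D5, 4.43, 5.51 and 4.59 on D6, 1.04, 1.54 and 1.86 on D7, 0.871, 1.82 and 0.718 on D8, 7.05, 3.10 and 4.44 on D10, and 22.6, 16.3 and 14.7 on D15. It was lowest on D7 and D8 and highest on D15. Its falls of -1.10 ± 0.26 (SE, edgeR adjusted p = 0.0013) and -1.70 ± 0.35 (SE, edgeR adjusted p = 0.000409) were the largest of the members in those steps. Adamts9, another versicanase of the heart, was high throughout, with 167 ± 10.2 CPM on D5 and 386 ± 8.57 on D15 (SD, n = 3), a log2 fold change of 1.21. Adamts4, an aggrecanase, went from 0.883 ± 0.267 to 16.8 ± 2.86 (SD, n = 3), or 4.21 on the log2 scale. Of their substrates, Vcan, the versican gene, fell by 2.4 on the log2 scale from D5 to D15, from 414 to 78.4 CPM (edgeR adjusted p = 1.96e-07), and Acan had 12 reads in all. Vcan is named here after its values were seen.

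The 3 procollagen N-proteinases, which trim fibrillar procollagens before fibrils form, all ended higher on D15 than on D5, beside 40.3% of all tested genes. Of them, Adamts14 reached the filter's level in every library of a day only from D7 on, so the filter favoured a rise for it. Adamts14 was at 0.872, 1.82 and 2.59 CPM on D5, 1.22, 1.38 and 1.11 on D6, 2.08, 1.54 and 2.79 on D7, 3.48, 4.31 and 3.41 on D8, 6.13, 7.42 and 9.27 on D10, and 47.4, 46.6 and 47.5 on D15. Its D15 libraries were at 46.6 or more and no earlier library was over 9.27. It gained 2.64 ± 0.19 (SE, edgeR adjusted p = 1.9e-12) in the last step. Adamts3, which also serves the activation of the lymphatic growth factor VEGF-C, had 9.81 ± 1.07 CPM on D5, 46.4 ± 8.49 on D10 and 48.8 ± 3.75 on D15 (SD, n = 3), and gained 2.31 from D5 to D15. Adamts2 peaked on D6, at 121 ± 8.07, was at 56.9 ± 5.19 on D10 and at 114 ± 4.72 on D15 (SD, n = 3), a gain of 0.52 over D5. Of their substrates, Col1a1 gained 6.51 ± 0.18 (SE, edgeR adjusted p = 1.05e-13) and Col3a1 9.51 ± 0.23 (SE, edgeR adjusted p = 9.02e-14) from D5 to D15.

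Adamts7 and Adamts12, which cut the cartilage oligomeric matrix protein, rose in different windows. Adamts7 stood at 20.5, 18.2 and 22.2 CPM on D5, 41.4, 44.5 and 41.3 on D6, 31.8, 29.0 and 32.1 on D7, 40.1, 38.5 and 32.3 on D8, 65.8, 54.7 and 59.3 on D10, and 146, 161 and 159 on D15, with D15 above every other day. Adamts12 stood at 4.22, 2.23 and 2.72 CPM on D5, 5.50, 7.35 and 8.08 on D6, 10.6, 13.4 and 14.7 on D7, 46.6, 48.3 and 58.9 on D8, 47.5, 45.0 and 62.2 on D10, and 75.5, 65.3 and 75.4 on D15, and its main gain of 1.99 ± 0.16 (SE, edgeR adjusted p = 1.69e-10) came from D7 to D8. Adamts7 gained most in the last step, 1.37 ± 0.09 (SE, edgeR adjusted p = 1.63e-13). Of the fibrillin-linked pair, Adamts10 rose from 69.2 ± 8.26 to 191 ± 15.9 CPM (SD, n = 3), a gain of 1.46, and Adamts6, whose loss disturbs heart development in mice, peaked on D10 at 28.9 ± 3.42 and was at 7.32 ± 2.68 on D15 (SD, n = 3), which is -1.99 in the last step and 1.11 against D5.

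Of the remaining ADAMTS genes, Adamts19, loss of which causes heart valve disease, was at 2.04, 1.26 and 0.272 CPM on D5, 1.38, 1.38 and 1.27 on D6, 0.893, 0.771 and 0.465 on D7, 3.63, 4.81 and 2.33 on D8, 20.5, 15.2 and 14.1 on D10, and 44.2, 28.0 and 25.6 on D15. No library exceeded 2.04 CPM until D7, and then it rose by 2.31 ± 0.49 (SE, edgeR adjusted p = 0.000849) and by 2.20 ± 0.30 (SE, edgeR adjusted p = 1.76e-06). Adamts19 reached the filter's level in every library of a day only on D8, D10 and D15, so it was tested because of those days. Its D7 to D8 test is not independent of that selection. Adamts16 had no read on D5, 1, 2 and 4 reads on D6, 4, 3 and 7 on D7, 14, 11 and 5 on D8, 57, 64 and 31 on D10 and 5, 7 and 7 on D15. That is a peak of 8.59 ± 2.53 CPM (SD, n = 3), with D10 above all other days. Adamts16 passed the filter on low counts through D10 alone, and the stricter filter dropped it, so its differences into and out of D10 are given as reads without a test. The counts of risen and fallen members per step still include its calls. D15 was at least 7.7-fold higher than D5 set to 3 reads over the group. The D5 to D6 call of Adamts16 (edgeR adjusted p = 0.0184) rests on 7 reads and was lost without the third D6 library. Adamts17 moved down and up again, at 76.3 ± 18.7 on D6, 34.3 ± 4.79 on D7 and 88.7 ± 7.20 on D8 (SD, n = 3), with steps of -1.15 and 1.37 that both passed.

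Step by step, the count of risen members was highest from D8 to D10. From D5 to D6, 14 rose and 3 fell, beside 18.2% and 16.4% of all tested genes. Timp2, Mmp23 and Adamts20 were the 3. From D6 to D7, 9 rose and 6 fell (15.1% and 15.3% of all). Timp2, Adamts2, Adamts7, Adamts9, Adamts17 and Adamts20 were the 6. From D7 to D8, where the label changes to immature cardiomyocytes, 16 rose and 1 fell (12.6% and 11.6%), the 1 being Mmp17. From D8 to D10, 23 rose and 1 fell (17.3% and 13.9%), the 1 being Adamts1. From D10 to D15, 18 rose and 5 fell (26.4% and 24.4%). The 5 that fell at the end were Mmp11, Mmp16, Adamts6, Adamts15 and Adamts16. They are the 5 that peaked on D10, which is no separate result, since a peak on D10 already means a lower D15 mean. Among the 27 members over the filter's level in every library of both days, which leaves out Adamts16, 18 rose and 4 fell. For that restricted count the shares of all tested genes were not computed. Counted by libraries that do not overlap, 14 members stood above and 3 below from D5 to D6 (25.2% and 23.6% of all), 13 and 8 from D6 to D7 (20.7% and 21.8%), 18 and 1 from D7 to D8 (18.8% and 18.5%), 22 and 1 from D8 to D10 (22% and 20.6%) and 16 and 6 from D10 to D15 (29.2% and 27.4%). The days are 1, 2 or 5 apart, so the steps are not equal in time. Over the 5 steps, 13 members rose at least once without a fall, 14 both rose and fell, and Mmp15 had no step called. The share of all tested genes with such patterns was not computed, so these counts set nothing apart.

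**Figure D5:**
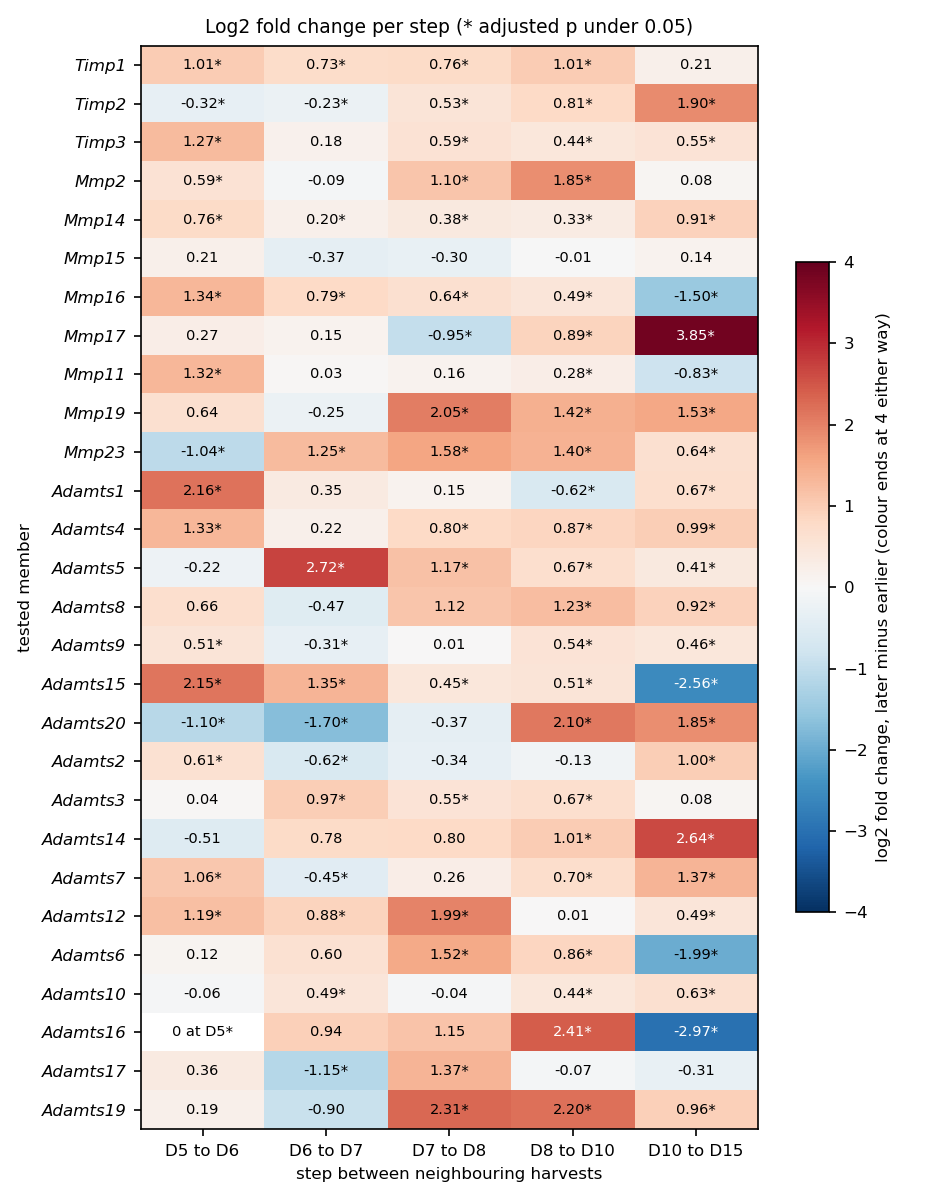
Log2 fold change (colour and printed value) of the 28 tested members (rows) in the 5 steps between neighbouring harvests (columns), with a star where the edgeR adjusted p is under 0.05. The D8 to D10 column holds 23 rises, and Adamts15 after D10 stands at -2.56.

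Between the labelled stages, each taken as the mean of its 3 days, 25 members were higher and 2 lower, beside 39.3% and 37.8% of all tested genes. The 2 lower were Adamts2, at -0.30 ± 0.09 (SE, edgeR adjusted p = 0.0059), and Mmp15, at -0.43 ± 0.14 (SE, edgeR adjusted p = 0.0148). Adamts20 was the one not called. With the 2 stages as the only groups, which adds the spread between days to the error, Adamts2, Adamts1 and Mmp11 lost the call.

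Genes of protease activation mostly rose as well. Of 9 tested activators and genes of the plasminogen system, 7 were higher on D15 than on D5 and 1 was lower (40.3% and 37.7% of all tested genes). Plau and Plat, the plasminogen activators, gained 4.21 and 1.37, and the proprotein convertase gene Pcsk6 gained 4.25. The one lower was Pcsk5 at -0.31, and Serpine2, at -0.03, was not called. Plasminogen itself (Plg) had 7 reads and was not tested. The 5 genes of MMP inducers and MMP14 partners split, with Cav1 at 8.66 ± 0.17 (SE, edgeR adjusted p = 2.58e-23), Itgb3 at 4.87, Itgav at 1.97 and Bsg at 1.69 higher and Cd44, the hyaluronan receptor that docks MMP14, lower at -1.36.

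All 10 genes of a mixed list of further inhibitors and clearance genes were higher on D15 than on D5, beside 40.3% of all tested genes. Not every gene of that list encodes an inhibitor of MMPs or ADAMTS proteases. Thbs2, a thrombospondin that helps to clear MMP2 through the receptor encoded by Lrp1, went from 1.17 to 664 CPM and gained 9.13 ± 0.19 (SE, edgeR adjusted p = 1.65e-20). Papln, an ADAMTS inhibitor, had no read on D5 and 25.1 CPM on D15. Spock2 gained 5.25 and A2m, a broad protease trap, 3.24. Reck, the membrane inhibitor of MMPs, rose least, at 0.43 ± 0.10 (SE, edgeR adjusted p = 0.000297). The 5 ADAMTS-like genes, which resemble ADAMTS without the protease domain, all rose as well, with Adamtsl1 at 5.06, Adamtsl5 at 4.47, Adamtsl2 at 7.52 and Adamtsl3 at 4.04.

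Among related families, the ADAM genes and the cathepsins mostly rose. Of 10 ADAM genes, most of which encode proteases that shed membrane proteins, 7 were higher on D15 than on D5 and 1 lower. Of all tested genes, 40.3% were higher and 37.7% lower. Adam10 gained 2.39 ± 0.06 (SE, edgeR adjusted p = 2.89e-24), Adam23 2.52, Adam15 2.41 and Adam22 0.54. The products of Adam22 and Adam23 lack the catalytic site and are not proteases. Among the rest, Adam19 was lower at -0.45 and Adam8 and Adam9 were not called. All 6 tested cathepsins were higher, with Ctsb at 2.82 ± 0.06 (SE, edgeR adjusted p = 4.4e-25), Ctsl at 2.20, Ctsd at 1.48 and Ctsh at 5.90. Ctss, a cathepsin of immune cells, had no read in any library.

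The substrates followed 2 patterns. Of 6 fibrillar collagens 5 were higher on D15, among them Col1a2 at 8.43 and Col5a2 at 4.68, and Col2a1 of cartilage was lower at -3.56. Of 9 tested basement membrane and proteoglycan genes 6 were higher and 2 lower. Beside both lists, 40.3% of all tested genes were higher on D15 than on D5 and 37.7% lower. Col4a1 and Col4a2, the basement membrane collagens cut by MMP2, gained 3.24 and 3.27, and Nid1 and Nid2 3.12 and 2.17. Lama1, the laminin chain of early embryonic membranes, was lower at -4.62 ± 0.27 (SE, edgeR adjusted p = 1.91e-09), as was Vcan. Col1a1, Col1a2 and Col3a1 are also on the fibroblast marker list. The exceptions of each list were named after their values were seen.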

How the data were processed

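PolyA RNA was measured in 18 libraries of single-end reads of 50 bases, 3 for each of 6 days. Values are raw read counts per gene as deposited by the authors. The submitters' processing notes name STAR and mm10. The counter, the annotation, the versions and whether counting used strand are not given in the sources used here, so reads of overlapping antisense genes may not be separated. Per the labels' names, 18 columns were assigned to days, and 3 columns that match no sample were not used.

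Counts were fitted with edgeR 4.0.16 in R 4.3.3: filterByExpr (minimum count 10, 13116 genes kept), TMM scaling, 1 mean per day, and robust quasi-likelihood F tests with 12 residual degrees of freedom, adjusted by Benjamini-Hochberg over all genes tested. Genes under an adjusted p of 0.05 were called. The SE is the unshrunken log2 fold change over the square root of F. The code was checked on simulated counts. Exon lengths, overlaps and unique 50-base stretches come from GENCODE M21. Alternatives were RLE and upper quartile scaling, DESeq2 1.42.0, limma-voom (limma 3.58.1), other filters, fewer groups, and leaving out each library.

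Members and lists were chosen with earlier results of these data known. Values in every library are given for the TIMPs, the 12 members of largest F, the 2 of highest CPM per kb on each day, and the largest rise and fall of each step and of D5 to D15. Up to 4 genes of each wider list, those of smallest p across days, are named. A gene that this rule names is not reported here.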

Additional observations from a re-analysis of the deposited data

How the results depend on the processing

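Alternatives were run for the called values of members and for Mmp15 across days (RLE and upper quartile scaling, DESeq2, limma-voom, no filter, a stricter filter, the compared days alone, stages as the only groups, and leaving out each of the 18 libraries in turn). Of 4389 such recomputed values, 4336 stayed on their side of the threshold, 51 lost the call, 2 gained one and 0 reversed. Both gains were for Mmp15 across days, without the first or the third D10 library. The other uncalled values were not in this set, and among them falls were gained by Adamts17 from D10 to D15 (upper quartile scaling, the 2 days alone, and without the first or the third D6 library), Mmp15 from D6 to D7 (the 2 days alone) and Adamts2 from D7 to D8 (without the third D5 or the third D8 library). Among the lost calls were Adamts4 from D7 to D8 (DESeq2, limma-voom and no filter) and Adamts8 from D8 to D10 (DESeq2 and limma-voom). Counts of members that rose stayed within 1.5 times everywhere. The small counts of falls moved. From D5 to D15 the 0 falls became 1 with DESeq2 (Adamts18) and 2 without a filter (Adamts18 and Mmp25), both on genes under the filter. From D7 to D8 the 1 fall ran from 0 to 2 when a library was left out. From D8 to D10 the 1 fall became 2 without a filter (Adamts1 and Mmp28) and ran from 1 to 2 when a library was left out. The 2 falls between stages became 1 with stages as the only groups. Neither RLE nor upper quartile scaling shifted the median of all genes by more than 0.1. Chosen after seeing the data, restricting each count to members over the filter's level on the days compared, or leaving out Mmp19 and Timp3, kept every count within 1.5 times. No paired analysis was possible because the columns carry no replicate number. Depth limits what the members with few reads can show: a gene without a read may hold up to 3 counts a group.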
